A study of Mus musculus with 6 samples.

Results

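The genes described here code for the receptors through which neurons receive inhibitory input, and for the proteins that hold those receptors at the synapse. They were chosen by name: 26 genes for subunits of GABA-A, GABA-B and glycine receptors and for scaffold or auxiliary proteins of the inhibitory postsynapse, out of 55335 genes in the count tables. All 26 were found by gene symbol, and 24 of them had enough counts to be tested. The list does not hold every subunit gene of these receptors, so totals and shares below are over the listed genes only. The measurements are bulk RNA sequencing counts from the substantia nigra of C57 mice. The 3 control libraries are titled WT, and the other 3 are labelled shDNAJB1, the prefix standing for a short hairpin RNA and the target being Dnajb1, an HSP40 co-chaperone gene. The series asked which transcripts of this tissue differ after knockdown of Dnajb1. How the hairpin was delivered, whether control mice received one, and the age and sex of the animals are not given in the labels used here. The labels do not tie libraries to individual animals; p-values therefore reflect only the spread among these libraries, which may be technical.

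GABA-A and glycine receptors are ligand-gated pentameric chloride channels. The alpha, beta, gamma, delta, epsilon and theta subunits of GABA-A receptors combine into subtypes with different kinetics and drug sensitivity. GABA-B receptors are G protein-coupled and need both of their subunits. Gephyrin binds glycine receptors through their beta subunit and holds them, with GABA-A receptors, at the postsynaptic membrane. In the substantia nigra, inhibitory input reaches dopaminergic neurons of the compacta and GABAergic neurons of the reticulata from striatum, pallidum and local collaterals.

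Total gene counts ran from 24541386 to 38468363 per library, and 18870 genes were tested. Dnajb1 itself was at 59.8, 47.2 and 51.9 CPM (a gene's count relative to its library's total after TMM scaling, in the usual counts-per-million unit) in control 1, 2 and 3 and at 44.3, 52.4 and 52.5 CPM in shDNAJB1 1, 2 and 3. Its log2 fold change was -0.09 (95% interval -0.39 to 0.21, n = 3 per group) with an adjusted p = 0.909 by edgeR, so no fall of the target was detected and the second group is named by its label throughout. Dopaminergic neurons were represented in every library, with the tyrosine hydroxylase gene Th between 97.0 and 418 CPM. Neuronal markers varied widely between libraries: Gad1, an enzyme of GABA synthesis, ranged from 56.1 CPM in shDNAJB1 3 to 882 CPM in shDNAJB1 1. Because the tissue was sampled in bulk, fewer cells of a type and less RNA per cell cannot be told apart.

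Several of these genes lie next to each other. Gabrg1, Gabra2, Gabra4 and Gabrb1 lie within 1397991 bases of chromosome 5, and Gabra4 (positions 71569749 to 71658308 of mm10, minus strand) and Gabrb1 (positions 71658113 to 72149037, plus strand) start head to head, with gene models that overlap by 196 bases and exons by 46 bases. Gabra5 and Gabrg3 lie near each other on chromosome 7, Gabra6 and Gabrb2 on chromosome 11, and Gabre, Gabra3 and Gabrq on the X chromosome. RefSeq promoter windows (build GRCm38.p6, 250 bases before to 50 bases after a start) were available for 24 of the 26 genes. Gabrd and Glra1 had no entry. Windows of 3 genes are printed: the head-to-head pair, whose gene models overlap at their starts, and Gabrb2, the beta gene differing more between groups. They are read 5′ to 3′ on the strand of each gene, and capitals mark matches on either strand to the GC box GGGCGG, the TATA box TATAAA, the cyclic AMP response element TGACGTCA, the E box CACGTG, the CCAAT box or the NRF1 motif.
Gabra4 (chr5:71658259-71658558, minus strand): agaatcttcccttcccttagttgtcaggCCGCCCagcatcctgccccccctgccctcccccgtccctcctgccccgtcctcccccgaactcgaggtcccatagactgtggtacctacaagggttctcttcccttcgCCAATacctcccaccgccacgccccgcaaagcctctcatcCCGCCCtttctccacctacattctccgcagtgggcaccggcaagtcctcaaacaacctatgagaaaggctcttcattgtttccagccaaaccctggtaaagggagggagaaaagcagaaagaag
Gabrb1 (chr5:71657671-71657970, plus strand): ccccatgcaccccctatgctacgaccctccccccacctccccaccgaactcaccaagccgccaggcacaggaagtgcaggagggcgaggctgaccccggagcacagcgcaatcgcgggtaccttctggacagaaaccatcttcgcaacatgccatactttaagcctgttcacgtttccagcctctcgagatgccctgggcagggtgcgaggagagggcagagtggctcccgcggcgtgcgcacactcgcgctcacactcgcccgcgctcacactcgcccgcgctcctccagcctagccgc
Gabrb2 (chr11:42420190-42420489, plus strand): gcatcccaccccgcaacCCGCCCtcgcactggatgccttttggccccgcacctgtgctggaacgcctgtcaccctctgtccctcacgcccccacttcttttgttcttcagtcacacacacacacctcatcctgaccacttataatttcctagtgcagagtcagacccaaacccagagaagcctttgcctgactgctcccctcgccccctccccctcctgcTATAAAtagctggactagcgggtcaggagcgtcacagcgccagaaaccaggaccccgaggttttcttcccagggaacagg
The windows of the pair are separated by 288 bases. Windows follow RefSeq starts, while the gene models above come from another annotation (GENCODE), and the starts can differ. The Gabrb1 window ends at 71657970, before the gene model start at 71658113. The Gabrb2 window lies inside its gene model, which starts at 42419757. The Gabra4 window holds 2 matches to GGGCGG and 1 to CCAAT. The printed Gabrb1 window holds 0 matches to any of the motifs, and the printed Gabrb2 window holds 1 match each to GGGCGG and TATAAA. RefSeq lists a further Gabrb1 window, from 71699682, which holds 1 match to the NRF1 motif. Of the further Gabrb2 windows, that from 42420524 holds 1 match to CCAAT and that from 42420951 holds 0 matches. Gabra3 also has more than 1 window, so the 24 genes have 28 windows. GGGCGG was present in 57.1% of these and in 35.7% of all 32851 promoter windows of that length, CCAAT in 50% and 37.4%, TATAAA in 14.3% and 13.6%, and the NRF1 motif in 3.57% and 4.6%. Windows are not separate units. Those of Gabra3 (72656758 to 72657057 and 72656870 to 72657169) overlap and share their TATAAA and CCAAT matches, which are counted in both. The 4 windows with TATAAA belong to Gabra3, Gabrb2 and Glra2. The cyclic AMP response element was in 0 of the 28 windows, against 1.79% of all, and the E box in 0, against 7.15%. The matches describe letters in a window and no binding was measured.

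Levels of different genes are compared as CPM per kilobase of annotated exon, averaged over the 6 libraries. Gabbr1, the ligand-binding GABA-B subunit, was the most abundant of the list at 91.9 ± 7.78 (SD, n = 6), followed by Glrb, the glycine receptor beta subunit, at 62.4 ± 6.51. Nlgn2, the neuroligin of inhibitory synapses, was at 34.2 ± 3.56, Gabra3 at 31.7 ± 4.50, Gabbr2 at 28.8 ± 7.05, Lhfpl4 at 25.3 ± 4.37, Gabrb2 at 24.4 ± 8.07 and Gphn, which codes for gephyrin, at 18.8 ± 1.63. The ranges of Gabbr1 and Glrb over the 6 libraries lie apart from each other and from the rest. Below Glrb every pair of neighbours in the order overlaps in range except Gabrr2 (1.71 ± 0.425) and Gabre (0.748 ± 0.280), so that order is loose; per longest transcript Gabrb2, at 38.9 ± 12.9, stands above Nlgn2 at 35.5 ± 3.70. Gabrb1 was at 12.6 ± 3.76, Glra2 at 10.5 ± 4.02 and Gabra5 at 9.06 ± 3.71. At the bottom of the list were Gabrd at 0.709 ± 1.18, Glra4 at 0.215 ± 0.0569, Gabrr1 at 0.136 ± 0.0839, Gabra6 at 0.101 ± 0.126 and Gabrr3 at 0.0350 ± 0.0858. Among the listed GABA-A subunits Gabra3 and Gabrb2 stood highest, and Glrb stood above every glycine alpha subunit.

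**Figure D1:**
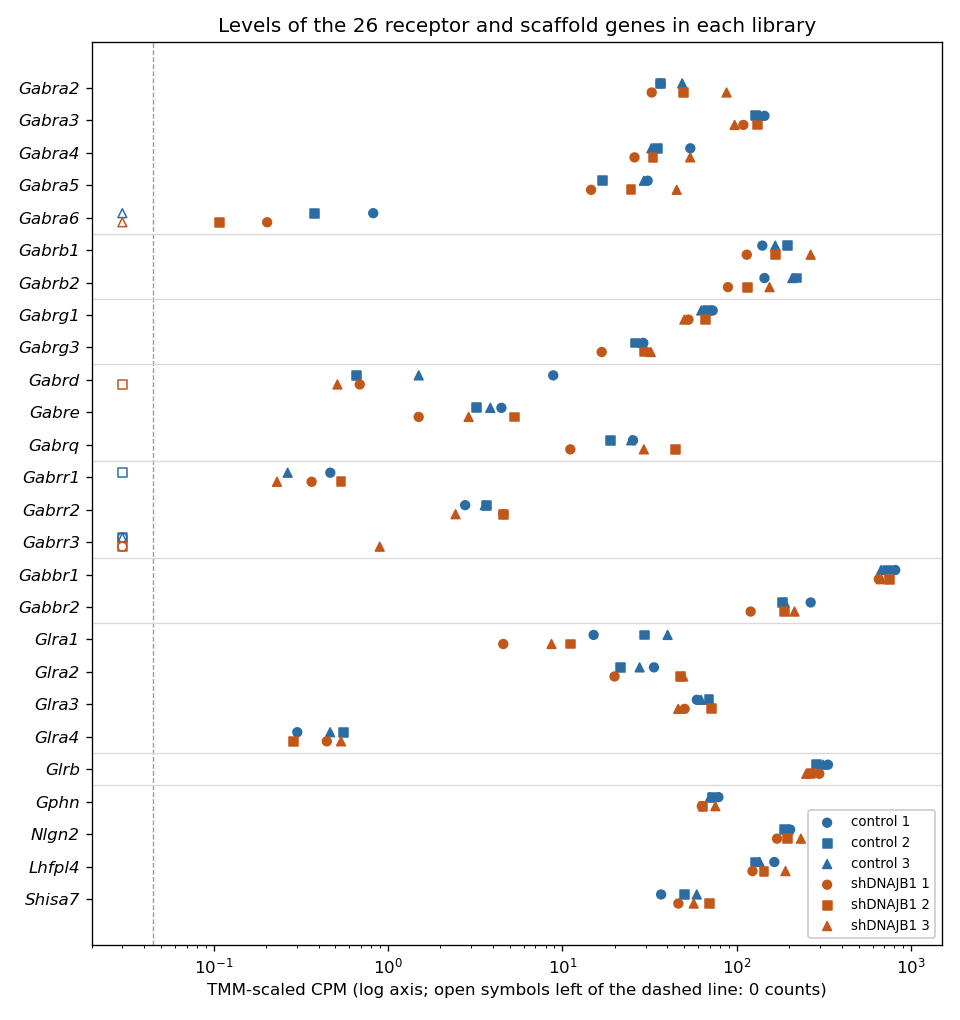
TMM-scaled CPM of each of the 26 genes (log axis) in the 3 control libraries (blue) and the 3 libraries labelled shDNAJB1 (orange), with the symbol shape giving the library number and open symbols marking 0 counts. Glra1 is the gene whose groups are apart, with 15.1 to 40.1 CPM in controls and 4.58 to 11.1 CPM in the libraries labelled shDNAJB1.

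Between the groups, the quasi-likelihood test of edgeR called no gene of the list at an adjusted p of 0.05, and 0 of the 18870 genes tested (0%). The listed genes had adjusted p-values from 0.765 to 0.993. Of the 24 tested, 14 (58.3%) had lower and 10 higher values in the libraries labelled shDNAJB1, where 49.2% of all genes tested were lower, with a median log2 fold change of -0.10 beside 0.01 over all genes tested. An unadjusted p under 0.05 was reached by 3 of the 24, Glra1, Gabrb2 and Gabrd, all with lower values, where 6.37% of all genes tested reached it in either direction, 3.33% with lower and 3.04% with higher values. Separate groups were seen for 1 of the 24, Glra1, against 14.0% of all genes tested (7.06% lower and 6.98% higher). DESeq2's Wald test called 1 of the 24, Glra1, and 0.297% of all genes tested (56 genes). The median log2 fold change was 0.06 without shDNAJB1 1. The members were chosen with earlier results of these data known, so these counts and shares are a description only.

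**Figure D2:**
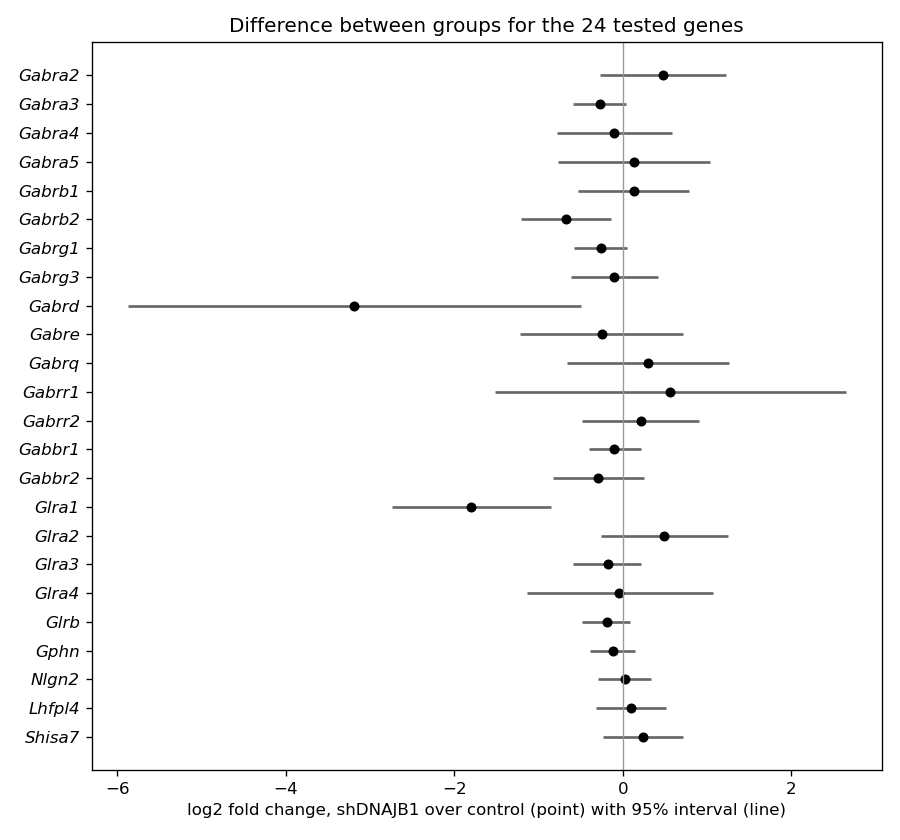
Log2 fold change of the libraries labelled shDNAJB1 over controls (points) with its 95% interval (lines) from edgeR's quasi-likelihood fit, for the 24 genes tested, n = 3 libraries per group. The intervals of Glra1 (-2.74 to -0.85), Gabrb2 (-1.21 to -0.14) and Gabrd (-5.88 to -0.50) lie below 0 before adjustment, and the other 21 include 0.

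Among glycine receptor genes, Glra1 stood lower in every library labelled shDNAJB1 than in every control. Glra1 (ENSMUSG00000000263; chromosome 11, positions 55514238 to 55608198, minus strand) codes for the alpha 1 subunit of the adult spinal and brainstem receptor. Control 1 to 3 gave 551, 859 and 1204 counts, or 15.1, 29.7 and 40.1 CPM. For shDNAJB1 1 to 3 these were 113, 310 and 338 counts, or 4.58, 11.1 and 8.66 CPM. The lowest control thus lay above the highest library labelled shDNAJB1, while both groups were widely spread. The log2 fold change was -1.80 (SE 0.41), or 28.8% of the control level with a 95% interval of 15% to 55.4%, with an unadjusted p = 0.00234 and an adjusted p = 0.765 by edgeR. DESeq2's Wald test gave the same fold change with an adjusted p = 0.00677, and over the other alternatives the adjusted p ran from 0.224 to 0.999. Permuting the group labels exactly (two-sided) gave p = 0.1, the smallest that 3 against 3 allows. Any gene with separate groups gives this value, so it adds nothing to their separation. The log2 fold change ran from -2.09 without control 1 to -1.45 without control 3.

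Slc6a5, the glycine transporter of glycinergic nerve terminals, was at 33.1, 3.12 and 91.2 CPM in control 1, 2 and 3 and at 5.31, 3.48 and 1.18 CPM in shDNAJB1 1, 2 and 3. Control 2 therefore had Slc6a5 in the range of the libraries labelled shDNAJB1 while its Glra1 level, 29.7 CPM, was above all of theirs. The list of glycinergic hindbrain markers that holds Slc6a5 summed to 3.12 to 91.5 CPM in controls and to 1.90 to 5.56 CPM in the other group, with 1 of its 5 genes tested. Its Hox genes Hoxb3, Hoxb4, Hoxa3 and Hoxb5, which mark hindbrain and spinal cord, were each at most 1.33 CPM in any library. Unlike Slc6a5, each of these Hox genes was highest in shDNAJB1 2. Hoxb4 and Hoxb5 were at 0 CPM in every control and at 0.0769 to 0.179 CPM in the other group. Control 3, with the most Glra1, also had the most of 6 hypothalamic markers, which summed to 162 CPM there and to 2.67 to 6.13 CPM in the other 5 libraries. Most of that sum was Pmch, at 143 CPM, with Hcrt at 16.2 CPM, and Avp and Oxt were highest in control 2. The part of such tissue in the Glra1 difference was not tested.

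The other glycine alpha subunits differed from Glra1 in their pattern. Glra2, the alpha 2 subunit best known from development, was at 33.5, 21.6 and 27.7 CPM in controls and at 19.9, 47.4 and 49.3 CPM in the libraries labelled shDNAJB1. Its highest and its lowest values both came from the second group, and the log2 fold change of 0.49 (SE 0.33) had an interval from -0.26 to 1.25. Glra3, whose receptor is known from spinal pain pathways, was at 46.1 to 71.6 CPM over the 6 libraries with a log2 fold change of -0.18 (SE 0.17). Glra4 had 8 to 21 counts per library, at most 0.554 CPM. Glrb, which brings glycine receptors to gephyrin, was at 333, 285 and 312 CPM in controls and at 297, 266 and 250 CPM in the other group. These ranges overlap only through shDNAJB1 1 and control 2, and the log2 fold change was -0.19 (SE 0.12).

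As a share of the 4 alpha subunits per kilobase, Glra1 made up 26.7%, 45.6% and 51.3% in the controls, against 13.7%, 16.7% and 14.6% in the other group. Glra2 made up 45.3%, 25.5% and 27.1% in controls and 45.4%, 54.5% and 63.8% in the other group. The Glra1 shares were apart between groups. Those of Glra2 nearly met, at 45.3% in control 1 and 45.4% in shDNAJB1 1, and overlapped when computed over the longest transcripts (22.7% to 40.6% and 39.0% to 58.7%). Shares within a class are linked, since they add up to the whole. These shares, and those of the beta subunits below, were examined after the values were seen and carry no test. Per kilobase, Glrb stood 4.03 to 11.4 times above Glra1 in controls and 12.4 to 33.6 times above it in the libraries labelled shDNAJB1.

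**Figure D3:**
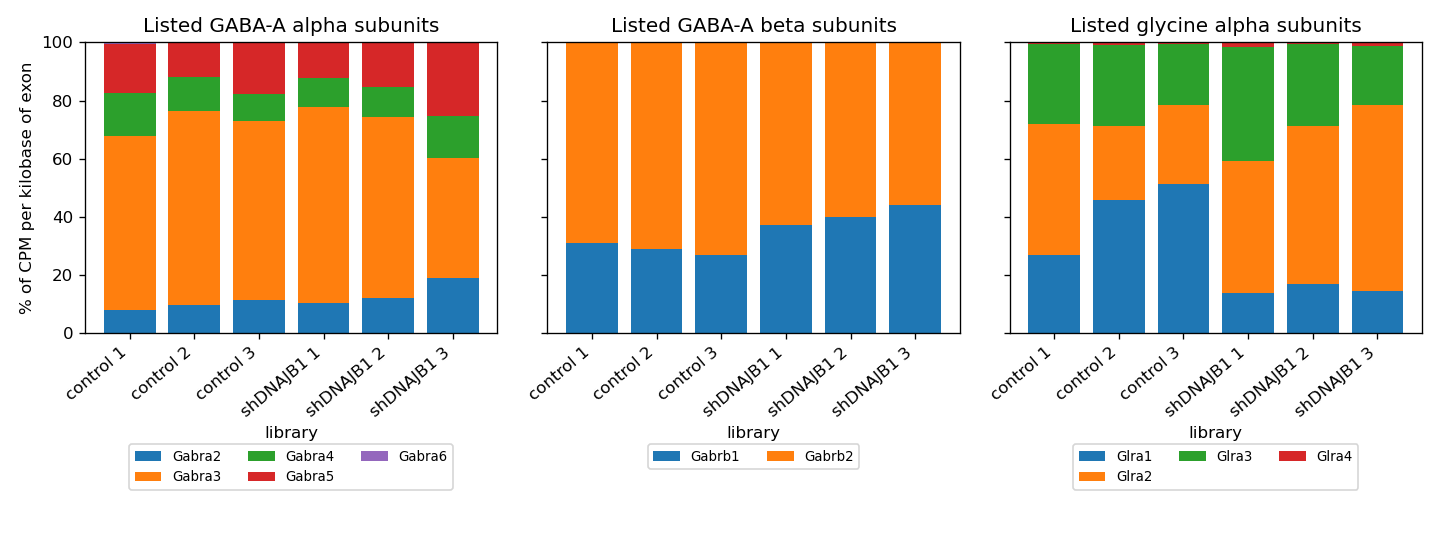
Share of each listed subunit in the summed CPM per kilobase of exon of its class, for GABA-A alpha, GABA-A beta and glycine alpha subunits, in each of the 6 libraries. The Glra1 share is 26.7% to 51.3% in controls and 13.7% to 16.7% in the libraries labelled shDNAJB1, and the Gabrb1 share is 26.8% to 30.9% and 37.2% to 44.2%.

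Of the beta subunits, which carry part of the GABA binding site, Gabrb2 had mostly lower values in the libraries labelled shDNAJB1 and Gabrb1 had values on both sides of the controls. Gabrb2 (ENSMUSG00000007653; chromosome 11, positions 42419757 to 42629028, plus strand) was at 144, 221 and 208 CPM in control 1, 2 and 3 and at 88.9, 115 and 154 CPM in shDNAJB1 1, 2 and 3. The groups overlap through control 1 and shDNAJB1 3. The log2 fold change was -0.68 (SE 0.23), or 62.6% of control with an interval of 43.2% to 90.7%, with an unadjusted p = 0.0194 and an adjusted p = 0.765 by edgeR. Gabrb1 was at 140, 195 and 166 CPM in controls and at 114, 167 and 265 CPM in the other group. The second group held both the lowest and the highest Gabrb1 value, and the log2 fold change of 0.13 (SE 0.28) became -0.24 without shDNAJB1 3. In every library Gabrb2 was the more abundant of the pair per kilobase, with Gabrb1 at 0.448, 0.406 and 0.367 of its level in controls and at 0.592, 0.668 and 0.791 in shDNAJB1 1, 2 and 3.

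Alpha subunits set the pharmacology and location of a GABA-A receptor. Gabra3, the alpha 3 subunit of monoaminergic neurons, led the listed ones at 144, 128 and 136 CPM in controls and 109, 132 and 97.1 CPM in the libraries labelled shDNAJB1. Its groups overlap through control 2 and shDNAJB1 2, and the log2 fold change was -0.27 (SE 0.14, interval -0.59 to 0.04). Gabra2, a synaptic subunit, was at 36.6, 36.4 and 48.6 CPM in controls and at 32.5, 49.5 and 87.3 CPM in the other group. One library, shDNAJB1 3, carried that difference: the log2 fold change was 0.48 (SE 0.32) with it and 0.02 without it. Gabra5, a mainly extrasynaptic subunit, showed the same library at the top, with 30.8, 17.0 and 29.3 CPM in controls and 14.6, 24.7 and 45.2 CPM in shDNAJB1 1, 2 and 3, and its log2 fold change of 0.13 (SE 0.39) became -0.39 without shDNAJB1 3. Gabra4, which pairs with delta in thalamus and striatum, was highest in control 1 and shDNAJB1 3 at 54.1 and 54.0 CPM, and 25.9 to 34.9 CPM in the other 4 libraries.

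Per kilobase, Gabra3 held 60.1%, 66.6% and 61.6% of the listed alpha subunits in controls and 67.3%, 62.3% and 41.1% in shDNAJB1 1, 2 and 3. The last of these was the library that stood apart, and Gabra5 and Gabra2 made up 25.2% and 19.0% there. The Gabra3 share in controls, 62.7% on average over exon unions, was 58.5% over the longest transcripts.

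Gabra6, the alpha subunit of cerebellar granule cells, did not pass the low-count filter. Control 1 to 3 gave 30, 11 and 0 counts, and shDNAJB1 1 to 3 gave 5, 3 and 0. A count of 0 allows up to 3 counts, or 0.0998 CPM in control 3 and 0.0769 CPM in shDNAJB1 3; such limits cover counting error only. The cerebellar granule markers summed to 147 to 219 CPM in controls and to 123 to 221 CPM in the other group. Of these markers Cbln3, Zic1 and Etv1 were highest in control 1, as Gabra6 was, and Fat2, Cbln1 and Neurod1 were highest in shDNAJB1 3, where Gabra6 had 0 counts. Their part in the Gabra6 counts was not tested.

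Gabrd codes for the delta subunit of extrasynaptic receptors that mediate tonic inhibition. Control 1 to 3 gave 323, 19 and 45 counts, or 8.86, 0.658 and 1.5 CPM; shDNAJB1 1 to 3 gave 17, 0 and 20 counts, or 0.689, 0 and 0.513 CPM. Most of its counts came from control 1, and control 2 was below shDNAJB1 1. The log2 fold change of -3.19 (SE 1.17, unadjusted p = 0.0256, adjusted p = 0.765 by edgeR) was -1.41 (SE 1.03) without control 1. Control 1 was also the library with the most Tcf7l2 and Prkcd, markers of thalamic neurons, at 162 and 94.7 CPM against 12.2 to 58.0 and 8.59 to 23.4 CPM in the other libraries. Its sum over the 7 thalamic markers, 993 CPM, was the highest of the 6, with 530 to 993 CPM in controls and 368 to 908 CPM in the libraries labelled shDNAJB1. Lef1, Rora and Plekhg1 of this list were also highest in control 1, while Slc17a6 was highest in shDNAJB1 3 (549 CPM, against 320 in control 1) and Calb2 in shDNAJB1 2 (310 CPM, against 190 in control 1). None of the 7 was at 0 in any library, and their part in the Gabrd value was not tested.

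The remaining GABA-A subunits varied without a shared direction. Gabrg1, a gamma subunit, was at 72.7, 67.9 and 62.5 CPM in controls and at 52.8, 66.3 and 50 CPM in the libraries labelled shDNAJB1, with a log2 fold change of -0.26 (SE 0.14). Gabrg3, the other listed gamma subunit, was at 16.8 to 32.1 CPM with -0.10 (SE 0.22). Gabrq, the theta subunit of monoaminergic and hypothalamic neurons, was at 25.4, 18.9 and 24.8 CPM in controls and at 11.1, 44.4 and 29.3 CPM in the other group. Its highest and lowest libraries were 3.99-fold apart, both in the second group, and the log2 fold change of 0.30 (SE 0.42) became -0.17 without shDNAJB1 2. Gabre, the epsilon subunit, lies near Gabrq on the X chromosome and had the same extreme libraries, with 1.5 CPM in shDNAJB1 1 and 5.31 CPM in shDNAJB1 2.

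Counts were low for the Gabrr genes of the list. Gabrr2 had 95 to 128 counts per library and a log2 fold change of 0.21 (SE 0.30). It was at 2.77, 3.67 and 3.59 CPM in controls and at 4.58, 4.59 and 2.44 CPM in the other group. Gabrr1 had 17, 0 and 8 counts in controls and 9, 15 and 9 counts in the libraries labelled shDNAJB1, with a log2 fold change of 0.56 (SE 0.90) that ran from 0.02 without control 2 to 1.45 without control 1. Gabrr3 had 35 counts, 0.897 CPM, in shDNAJB1 3 and 0 counts in the other 5 libraries, where 0 allows 0.0823 to 0.122 CPM, and it was not tested. Exons of Gabrr3 overlap those of 1700022E09Rik on the opposite strand by 279 bases, and that gene had 0 counts.

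The GABA-B subunit genes overlapped between groups. Gabbr1 was at 809, 731 and 671 CPM in controls and at 651, 748 and 669 CPM in the other group; the log2 fold change was -0.10 with an interval from -0.40 to 0.21. Gabbr2, the subunit that couples to the G protein, was at 265, 183 and 188 CPM in controls and at 120, 187 and 214 CPM in the other group, with -0.29 (SE 0.23). Its extremes were control 1 and shDNAJB1 1. Per kilobase Gabbr1 exceeded Gabbr2 by 2.63 to 4.68 times over the 6 libraries.

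Scaffold and auxiliary genes had no group difference past the test. Gphn was at 78.4, 72.0 and 70.2 CPM in controls and at 63.0, 63.9 and 75.3 CPM in the other group; the log2 fold change was -0.12 with an interval from -0.39 to 0.14, or 76.2% to 110% of control. Nlgn2 was at 202, 188 and 198 CPM in controls and at 170, 195 and 233 CPM in the other group, at 102% of control (81.8% to 127%). Lhfpl4, which links GABA-A receptors to neuroligin 2, ranged from 123 to 190 CPM at 107% of control (80.2% to 143%), and Shisa7, a GABA-A receptor auxiliary subunit, from 36.8 to 69.4 CPM at 118% (84.9% to 164%). Among genes with counts in every library, the highest and lowest libraries differed by as little as 1.24-fold (Gphn and Gabbr1) and as much as 8.74-fold (Glra1).

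A pattern across libraries cut across the groups. For 15 of the 24 tested genes (62.5%) the lowest library was shDNAJB1 1, where 21.7% of all genes tested had their minimum. Among them are Gabra2, Gabra5, Gabrb1, Gabrb2, Gabbr2, Glra1, Glra2, Gphn, Nlgn2 and Lhfpl4. None of the 24 was highest there, against 21.5% of all genes tested. For 8 genes the highest library was control 1 and for 7 it was shDNAJB1 3, where 23.0% and 18.4% of all genes tested had their maximum. Genes of one list are not independent, and these counts are a description of the libraries.

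Transmitter genes varied over the same libraries in other ways. Gad1 was highest in shDNAJB1 1 at 882 CPM and lowest in shDNAJB1 3 at 56.1 CPM, so the library with the most Gad1 was the one in which most receptor genes were lowest. Slc17a6, the vesicular glutamate transporter of subcortical neurons, had the reverse order at those ends, with 99.5 CPM in shDNAJB1 1, 549 CPM in shDNAJB1 3 and 216 to 320 CPM in the other 4 libraries. The 8 GABAergic markers summed to 1196 to 1582 CPM in controls and to 1737, 789 and 317 CPM in shDNAJB1 1, 2 and 3. Of these, Pvalb, Six3 and Foxp1 were highest in shDNAJB1 1, as Gad1 was. Gad2, Slc32a1 and Tnnt1 were highest in control 1, and Sst in shDNAJB1 2. In shDNAJB1 1 Gad2 was at 375 CPM, below its 425 to 548 CPM in controls. Oligodendrocyte markers summed to 14553 to 15678 CPM in controls and to 15432, 12174 and 8453 CPM in shDNAJB1 1, 2 and 3. In the fit 7 of 7 were lower and 0 were called. The part of neuronal and glial makeup in the receptor values was not tested.

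**Figure D4:**
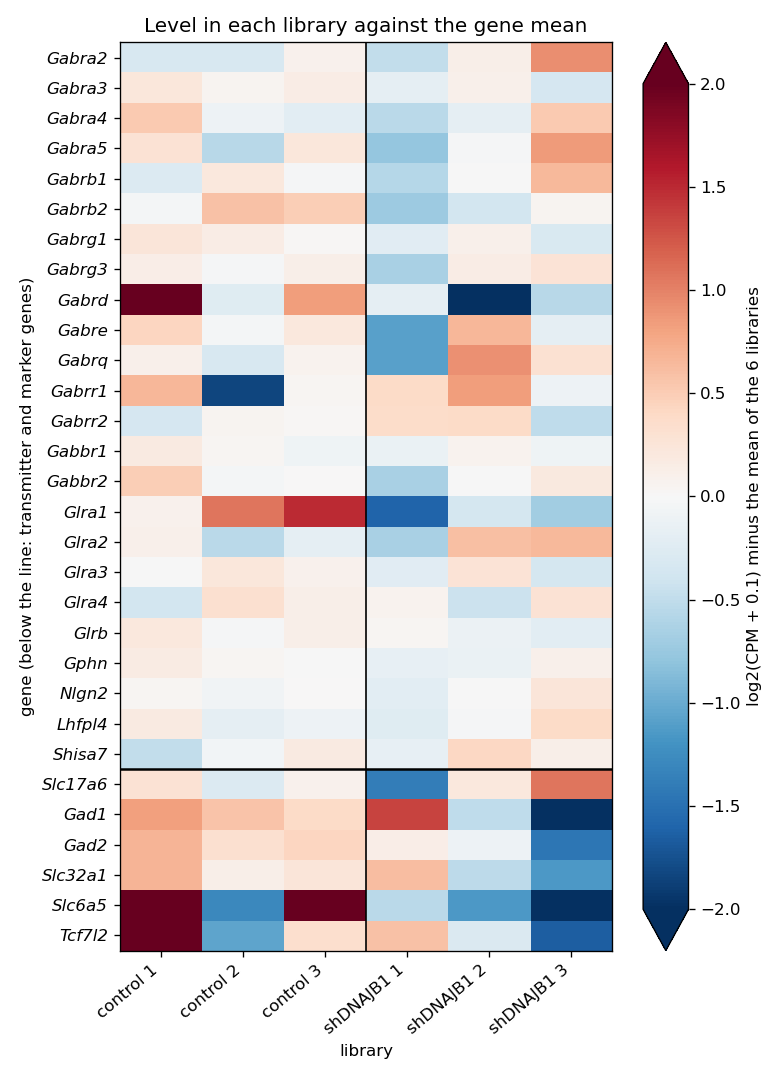
Log2(CPM + 0.1) of each tested receptor or scaffold gene (above the line) and of 6 transmitter and marker genes (below it) in each library, minus the mean of the 6 libraries. The column of shDNAJB1 1 is the lowest for 15 of the 24 genes. Gad1 is highest there at 882 CPM, while Gad2 and Slc32a1 are highest in control 1. Glra1 is red in control 2 and 3 and blue in all 3 libraries labelled shDNAJB1.

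The rest of the pathway was read from a list of 36 genes, of which 35 were matched and tested. Of these, 8 had higher and 27 lower values in the libraries labelled shDNAJB1, where 49.2% of all genes tested were lower. The median log2 fold change was -0.09, and edgeR called 0 at an adjusted p of 0.05. An unadjusted p under 0.05 was reached by 4 of the 35, all with lower values. Over all genes tested 6.37% reached it, 3.33% with lower values. Groups lay apart for 9 of the 35, and for 14.0% of all genes tested. The list was chosen with earlier results of these data known, and its genes are not independent. Gad1, Gad2, Slc32a1 and Slc6a5 are also in the cell type marker lists. These counts beside the shares over all genes tested are therefore a description only. In GABA and glycine synthesis and transport 9 of 10 were lower, in chloride transport 2 of 2, among receptor trafficking and postsynaptic genes 13 of 17 and among GABA-B auxiliary subunits and effectors 3 of 6. The smallest unadjusted p of the 35 was that of Slc6a5, 0.00824, with a log2 fold change of -3.70 (SE 1.06). Slc6a9, the glycine transporter found mainly on glia, was at 197, 182 and 177 CPM in controls and at 161, 120 and 116 CPM in the other group, a log2 fold change of -0.48 (SE 0.15). Slc12a2, the chloride importer NKCC1, was at 253, 270 and 285 CPM and at 227, 219 and 180 CPM, with -0.37 (SE 0.13). Dag1, which codes for dystroglycan of inhibitory postsynapses and vessels, was at 101, 105 and 87.7 CPM and at 69.4, 81.9 and 86.2 CPM, with -0.31 (SE 0.13). The groups of Slc6a9, Slc12a2 and Dag1 were apart, and the adjusted p was 0.765 for each by edgeR. Gad2, the synaptic form of the GABA-synthesising enzyme, was at 548, 425 and 462 CPM and at 375, 318 and 125 CPM, with -0.81 (SE 0.35). The groups of Gad2 were apart too, with an adjusted p = 0.765 by edgeR. Slc32a1, the vesicular transporter of GABA and glycine, was at 217, 147 and 159 CPM and at 208, 93.8 and 60.9 CPM, with -0.53 (SE 0.40). For Gad1 the log2 fold change was -0.41 (SE 0.77).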

How the data were processed

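Per the labels' protocols, RNA was taken up in Trizol and the TruSeq libraries keep strand. What the authors deposited is, for each library, a file of unnormalized counts for Ensembl genes. Per the submitters' processing notes, the tools were STAR 2.5.3a, FastQC 0.11.5, DESeq 1.16.1 and Cuffnorm, with mm10. The read counter, its annotation and its strand setting were not given in the sources used here. Symbols and exons came from GENCODE M21 of the same build, which matched 55154 of 55335 identifiers. Without a stated strand setting, reads where Gabra4 and Gabrb1 overlap cannot be assigned with certainty.

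Groups came from the titles. In R 4.3.3, edgeR 4.0.16 removed low genes (filterByExpr with a total of at least 15 and a count minimum of 10), computed TMM factors and ran its quasi-likelihood test; p-values were adjusted by Benjamini-Hochberg over all genes tested, and called at 0.05. The SE is the log2 fold change divided by the square root of F, and intervals are 95% from the t distribution. Counting error at the lowest library was 9.41% for Glra1 and 2.14% for Gabrb2, against a biological coefficient of variation of 24.1% over genes. That last value is common to all genes tested and is not the spread of either gene. Glra1 was at 28.3 ± 12.5 CPM (SD, n = 3) in controls and 8.12 ± 3.3 CPM in the other group. Gabrb2 was at 191 ± 41.1 CPM and 119 ± 32.7 CPM. The procedure was tested on simulated counts.

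The members and lists were chosen with earlier results of these data known. Values in every library are given for members with an unadjusted p under 0.05, separate groups, one of the 6 largest differences, the highest level of a class, or too few counts; some others were added after their values were seen. Pathway genes named were the 4 with the smallest unadjusted p, with Gad1, Gad2 and Slc32a1. The alternatives tried were upper-quartile scaling, size factors from DESeq2, no filter, a stricter filter (1 CPM in 3 libraries), DESeq2 1.42.0, limma-voom (limma 3.58.1), a replicate block and leaving out each library. Figures were drawn with matplotlib 3.10.9.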

Additional observations from a re-analysis of the deposited data

How the results depend on the processing

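Over 13 alternatives, 15 of the 24 tested genes kept the sign of their difference in each alternative that could be run for them, Glra1, Gabrb2 and Gabrd among them, and the other 9 changed sign on leaving out 1 library; the 7 other alternatives changed the sign of 0. The count of genes past the threshold was 56 in DESeq2's Wald test and the count of listed genes 1, against 0 and 0 in the main test and in the other 12 alternatives; the cause was not tested. The median over listed genes was -0.18 to 0.06 on leaving out 1 library and -0.11 to -0.08 otherwise. On leaving out 1 library the log2 fold change ran from -0.46 to 0.17 for Gabra4, -0.39 to 0.44 for Gabra5, -0.24 to 0.37 for Gabrb1, -0.28 to 0.13 for Gabrg3, -0.79 to 0.08 for Gabre, -0.17 to 0.67 for Gabrq, -0.26 to 0.18 for Glra4, -0.10 to 0.13 for Nlgn2 and -0.10 to 0.23 for Lhfpl4. Without a change of sign it ran from 0.02 to 0.75 for Gabra2, 0.02 to 1.45 for Gabrr1, 0.06 to 0.46 for Gabrr2, 0.29 to 0.81 for Glra2, 0.08 to 0.41 for Shisa7, -0.47 to -0.08 for Gabbr2 and -0.39 to -0.06 for Glra3. Gabrd, Gabrr1 and Glra4 did not pass the stricter filter. The deviations of same-numbered libraries were nearly uncorrelated (r over genes 0.037, -0.023 and 0.085). Not every library correlated best with its own number. Deviations within groups of 3 are linked, so these values cannot show whether the numbers mark a pairing. The labels do not state one. With the replicate block 0 genes and 0 listed genes passed, the median was -0.11, and Glra1 was at -1.79 (SE 0.19, adjusted p = 0.626 by edgeR). Pseudocount alternatives apply to normalized values and were not needed. Groups of 3 and counts of 0 to 35 per library limit what could be seen for Gabra6, Gabrr1, Gabrr3 and Glra4.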
